A study of Mus musculus with 3 samples.

Results

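The genes described here are the NADPH oxidase subunits Cybb, Cyba, Ncf1, Ncf4, Rac2 and Nox4 and the superoxide dismutases Sod1, Sod2 and Sod3. They are 9 of the 33696 features in the count tables, taken by gene symbol, and each symbol matched 1 feature. The set was chosen with earlier results of these data known. Their transcripts were counted nucleus by nucleus, with droplet barcodes, in frozen abdominal aortae. All animals were ApoE-/- mice of the C57Bl/6 strain, kept for 20 weeks on a high fat diet with or without smoke. ApoE-/- mice lack apolipoprotein E and are prone to atherosclerosis, so the control animals carry that genotype and diet too. The 3 libraries were 1 of mice exposed to cigarette smoke that had an abdominal aortic aneurysm (the aneurysm library), 1 of mice exposed to cigarette smoke without an aneurysm (the smoke library) and 1 of mice kept in room air (the room air library). The labels give neither age nor sex, nor how many animals stand behind a library. With 1 library a group there is no replicate spread and no test. Every interval below is a 95% interval for counting error only, and a difference between groups cannot be told apart from a difference between libraries.

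NADPH oxidases pass electrons from NADPH across a membrane to oxygen and so make superoxide or hydrogen peroxide. The phagocyte enzyme, oxidase 2, consists of the catalytic chain gp91phox (Cybb) held in the membrane by p22phox (Cyba), and it works only when cytosolic proteins, among them p47phox (Ncf1) and p40phox (Ncf4), and a Rac GTPase, in leukocytes mainly Rac2, join it. Oxidase 4 (Nox4) also binds p22phox but needs none of the cytosolic proteins, is active whenever it is present and mostly yields hydrogen peroxide. Superoxide dismutases turn superoxide into hydrogen peroxide: Sod1 in the cytosol, Sod2 in the mitochondrial matrix and Sod3, a secreted enzyme, in the extracellular matrix. In arteries, oxidase 2 is known from leukocytes among other cells, oxidase 4 from smooth muscle and endothelial cells, and Sod3 as a major dismutase of the wall.

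The promoters of the 2 catalytic chains and of the membrane partner they share are shown because Cybb and Nox4 occupied different cells, as described below, and Cyba has to serve both. The windows run from 250 bases before to 50 bases after the transcription start, are written 5′ to 3′ along the gene's strand and come from RefSeq (build GRCm38.p6). Capitals mark the 2 motifs searched on both strands, which do not overlap in these windows. They are GAGGAA (a core bound by ETS factors such as PU.1, which reads TTCCTC on the other strand) and GGGCGG (the GC box bound by Sp1, CCGCCC on the other strand).
Cybb (chrX:9469275-9469574, minus strand): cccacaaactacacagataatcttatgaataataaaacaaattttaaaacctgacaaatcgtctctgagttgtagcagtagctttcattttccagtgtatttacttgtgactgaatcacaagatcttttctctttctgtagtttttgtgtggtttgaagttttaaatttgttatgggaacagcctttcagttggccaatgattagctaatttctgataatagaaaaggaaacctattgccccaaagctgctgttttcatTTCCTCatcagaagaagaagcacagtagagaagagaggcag
Cyba (chr8:122432891-122433190, minus strand): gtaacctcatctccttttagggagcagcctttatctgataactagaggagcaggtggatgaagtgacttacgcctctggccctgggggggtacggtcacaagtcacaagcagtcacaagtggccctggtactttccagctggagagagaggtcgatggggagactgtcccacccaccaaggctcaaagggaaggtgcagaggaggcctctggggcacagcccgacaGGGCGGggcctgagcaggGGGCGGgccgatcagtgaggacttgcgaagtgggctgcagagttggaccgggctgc
Nox4 (chr7:87246399-87246698, plus strand): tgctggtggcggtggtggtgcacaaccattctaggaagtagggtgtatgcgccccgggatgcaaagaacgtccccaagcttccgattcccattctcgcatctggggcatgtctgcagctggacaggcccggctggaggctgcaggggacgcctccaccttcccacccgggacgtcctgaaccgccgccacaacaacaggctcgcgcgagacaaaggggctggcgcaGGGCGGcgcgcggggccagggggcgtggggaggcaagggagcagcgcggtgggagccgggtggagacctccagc
The Cybb window was poor in G and C, at 35.3%, against 60.7% for Cyba, 68.3% for Nox4 and a median of 52.7% over the 32851 promoter windows of the table. It held 1 GAGGAA, on the reverse strand and beginning 9 bases after the start, and no GGGCGG. Cyba held 2 and Nox4 1 copy of GGGCGG and neither held GAGGAA. Of the 6 genes with a window in the table (Cybb, Cyba, Ncf1, Nox4, Sod1 and Sod2), 5 held GGGCGG, up to 4 copies in Sod1 and in Sod2, and 2 held GAGGAA, Cybb and Sod2. Over all windows, 28.3% held GAGGAA and 35.7% held GGGCGG. The CArG box of serum response factor was found in 1.63% of all windows and in none of the 6. These matches describe letters only.

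The libraries held 7348 barcodes in aneurysm, 14859 in smoke and 13189 in room air, and their unique molecular identifiers (UMIs, each standing for 1 captured molecule) numbered 15634797 in aneurysm, 117247048 in smoke and 73891039 in room air. The nuclei kept after filters numbered 5707 in aneurysm, 14001 in smoke and 11022 in room air, with median UMIs per nucleus of 1443 in aneurysm, 6225 in smoke and 4058.5 in room air. The aneurysm library stood apart from the others: it was the shallowest, its share of adipocyte-like nuclei was high (21.6% in aneurysm, 1.4% in smoke and 0.327% in room air). Its share of macrophage-like nuclei was low (13.2% in aneurysm, 35% in smoke and 38.1% in room air). Pairs of libraries shared 26 to 46 barcode sequences. Nuclei were clustered without the 9 genes, and clusters were called by the cell type whose markers they carried, as in macrophage-like. Of the 24 clusters, 5 carried markers of more than 1 type or were shallow and stayed unnamed, among them cluster 5 (led by Grem1 and Grin2a, with fibroblast and smooth muscle markers) and cluster 9 (led by Cemip and Tgfb2, with smooth muscle markers). Levels are UMIs of the gene scaled to 1000000 UMIs of the class (CPM). Values of different genes are not set against each other because nuclear counts also depend on gene length, which ran from 5576 bases (Sod1) to 152615 bases (Nox4). Only classes with at least 50 nuclei in a library are described, which leaves out monocyte-like, dendritic-like, B-like and T or NK-like nuclei of the aneurysm library, of which there were 31, 16, 2 and 11, and the 36 adipocyte-like nuclei of the room air library.

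Of the named classes, leukocytes had the highest levels of the oxidase 2 subunits. Cybb, the catalytic chain, was highest in monocyte-like nuclei, at 505 CPM (487 to 523) in smoke and 518 CPM (491 to 545) in room air. Macrophage-like nuclei followed at 208 CPM (186 to 232) in aneurysm, 260.4 CPM (256 to 265) in smoke and 248 CPM (242 to 253) in room air. B-like nuclei lay above them in smoke and level with them in room air, at 417 CPM in smoke and 270.1 in room air. Below them came dendritic-like nuclei at 194 CPM in smoke and 193 in room air and T or NK-like nuclei at 148 CPM in smoke and 129 in room air. The T or NK-like value was 56.9% in smoke and 52.1% in room air of the macrophage-like level, inside the range of 10 macrophage markers in the same nuclei (28.8 to 78.7% in smoke, 17.5 to 81% in room air), so it is not read as expression. The dendritic-like value was 74.5% in smoke, above the highest of these markers there (57%). In room air it was 78.2%, inside their range (12.4 to 95.3%). The part of RNA from macrophages was not tested. In the smoke library the intervals of monocyte-like, B-like, macrophage-like, dendritic-like and T or NK-like nuclei did not overlap, whereas in the room air library those of B-like and macrophage-like nuclei did. Macrophage-like nuclei held the largest part of the Cybb UMIs, 48.3% in aneurysm, 66% in smoke and 70.1% in room air, while their part of all UMIs was 12.2% in aneurysm, 44.2% in smoke and 45.5% in room air.

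**Figure D1:**
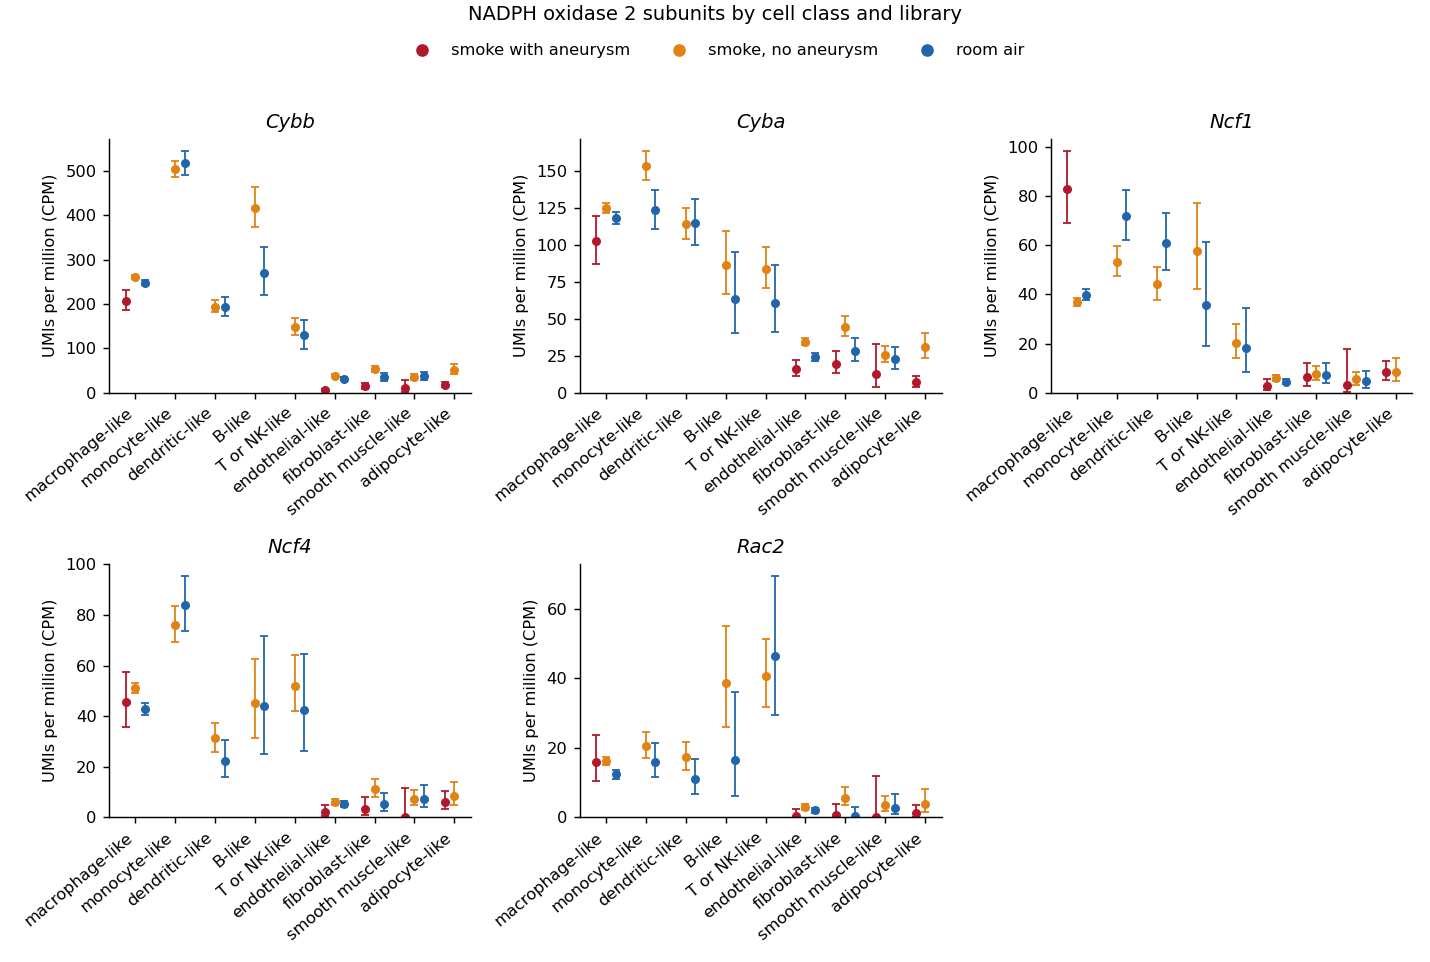
CPM of Cybb, Cyba, Ncf1, Ncf4 and Rac2 (linear axes, a panel per gene) in 9 cell classes; points are libraries with at least 50 nuclei of the class and bars are 95% Poisson intervals for counting error. Of the classes drawn, Cybb, Cyba and Ncf4 were highest in monocyte-like nuclei, Rac2 in T or NK-like nuclei, and endothelial-like, fibroblast-like and smooth muscle-like nuclei lay below the leukocyte classes in every panel.

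The share of macrophage-like nuclei with a Cybb UMI was 24.2% in aneurysm, 67.8% in smoke and 56.8% in room air, and their median UMIs per nucleus were 1539.5 in aneurysm, 8452 in smoke and 5417 in room air. In smooth muscle-like nuclei, where the Cybb level was lower, the share was 2.42% in aneurysm, 16.4% in smoke and 14.7% in room air. The median UMIs of these nuclei were 1512 in aneurysm, 6312 in smoke and 3450 in room air. With every nucleus of at least 1000 UMIs thinned to that number, the macrophage-like share was 17.6% in aneurysm, 21.8% in smoke and 19.9% in room air, and the smooth muscle-like share was 2.17% in aneurysm, 4.62% in smoke and 4.51% in room air. The libraries lay much closer together at equal depth, and the smoke library was highest in macrophage-like nuclei at either depth.

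Cyba, the membrane partner, was more even among leukocytes than Cybb. The shallow unnamed cluster 4, with ribosomal protein genes among its leading genes and markers of macrophages and wall cells, ranked first for Cyba in each library, at 114 CPM (87.1 to 146) in aneurysm, 217 CPM (194 to 241) in smoke and 147 CPM (127 to 168) in room air. In aneurysm it also ranked first for Cybb, at 262 CPM (221 to 309), and it held 21.4% of the Cybb and 16% of the Cyba UMIs there, against 4.28% of all UMIs. Monocyte-like nuclei had 153 CPM in smoke and 123 in room air, and dendritic-like nuclei had 114 CPM in smoke and 115 in room air. Macrophage-like nuclei had 102 CPM (87 to 119) in aneurysm, 125 CPM (122 to 128) in smoke and 118 CPM (114 to 122) in room air. Their aneurysm value was the lowest of the 3. In smoke they lay below monocyte-like nuclei (144 to 164), and their interval overlapped that of dendritic-like nuclei (104 to 125). In room air it overlapped those of monocyte-like (111 to 137) and dendritic-like nuclei (99.5 to 131), so the order is not settled there. Ncf4, which tunes the oxidase at phagosomes, had 76.2 CPM in smoke and 84 in room air in monocyte-like nuclei. In macrophage-like nuclei it had 45.7 CPM in aneurysm, 51 in smoke and 42.9 in room air, below monocyte-like nuclei in both libraries that could be set side by side. Rac2, the leukocyte Rac, had another order, with T or NK-like nuclei on top. T or NK-like nuclei had 40.6 CPM in smoke and 46.4 in room air, and B-like nuclei had 38.6 CPM in smoke and 16.5 in room air. Macrophage-like nuclei had 16.1 CPM in aneurysm, 16.3 in smoke and 12.4 in room air, below T or NK-like nuclei in smoke and room air.

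Within dendritic-like nuclei the subunits split by cluster. Cluster 19, led by Ccr7 and Il12b, genes of migrating mature dendritic cells, had 111 CPM in smoke and 75.3 in room air of Cybb, against 221 CPM in smoke and 229 in room air in cluster 11. Cyba ran the other way, with 154 CPM in smoke and 159.9 in room air in cluster 19, against 101 CPM in smoke and 101 in room air in cluster 11. Ncf4 went with Cybb, with 14.1 CPM in smoke and 9.41 in room air in cluster 19, against 36.7 CPM in smoke and 26.4 in room air in cluster 11. Each of these 3 differences had the same direction in both libraries, and the intervals did not overlap except those of Ncf4 in room air. The clusters were made from these same nuclei, so the differences are descriptions. In room air the Cybb level of the whole dendritic-like class lay inside the range of the macrophage markers, as given above.

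Between libraries, macrophage-like nuclei kept similar levels of most subunits. In smoke over room air, Cybb had a ratio of 1.05 (1.02 to 1.08), Cyba of 1.06 (1.02 to 1.1), Ncf4 of 1.19 (1.11 to 1.27) and Rac2 of 1.31 (1.16 to 1.49). In aneurysm over smoke, Cybb had a ratio of 0.798 (0.712 to 0.891), Cyba of 0.819 (0.695 to 0.959), Ncf4 of 0.895 (0.697 to 1.13) and Rac2 of 0.988 (0.636 to 1.47); these small differences stayed under 1.5-fold. Ncf1, the organiser p47phox, stood out: 82.9 CPM (69.3 to 98.6) in aneurysm, 37 CPM (35.4 to 38.8) in smoke and 39.8 CPM (37.6 to 42.1) in room air, a ratio of 2.24 (1.86 to 2.68) in aneurysm over smoke and 2.08 (1.72 to 2.5) in aneurysm over room air. The aneurysm library was the high one, and the other 2 differed by a ratio of 0.931 (0.866 to 1.0), smoke over room air. The aneurysm over smoke ratio of Ncf1 was past 1.5-fold under all 13 other ways of processing the data, with log2 ratios between 0.66 and 1.20.

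The make-up of the macrophage-like class differed between the libraries, and the Ncf1 difference was smaller within most of its 5 clusters. Cluster 17, led by Cd163, F13a1 and Lyve1, genes of resident macrophages, was a much larger part of the class in aneurysm (44.5% in aneurysm, 4.31% in smoke and 2.36% in room air). Its Ncf1 level was the highest of the 5 clusters in each library, at 106 CPM in aneurysm, 65.7 in smoke and 71.3 in room air, with cluster 1 next and within overlapping intervals. The aneurysm over smoke ratio of Ncf1 was 1.61 (1.12 to 2.31) in cluster 17, 2.31 (1.4 to 3.6) in cluster 0, 1.65 (1.15 to 2.3) in cluster 1, 1.57 (0.747 to 2.9) in cluster 3 and 1.09 (0.223 to 3.25) in cluster 10. It was above 1 in all 5 clusters, its interval excluded 1 in 3 of them, and the value of cluster 10 rests on 3 Ncf1 UMIs of the aneurysm library. The Ncf1 locus overlaps Gtf2ird2 on the opposite strand in the GENCODE annotation, and no source states whether counting used strand, so reads of the 2 genes may not be separable.

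Cybb within these clusters did not move as one. In cluster 17 it had 193 CPM in aneurysm, 426 in smoke and 208 in room air, so the smoke library was the high one, with ratios of 0.454 (0.364 to 0.561) in aneurysm over smoke and 2.05 (1.58 to 2.69) in smoke over room air. Cyba in the same cluster had 84.2 CPM in aneurysm, 45.3 in smoke and 34.1 in room air, with the aneurysm library highest, a ratio of 1.86 (1.22 to 2.83) in aneurysm over smoke. The aneurysm over smoke ratio of Cybb was 0.543 (0.391 to 0.735) in cluster 0, 0.795 (0.64 to 0.977) in cluster 1 and 0.932 (0.601 to 1.38) in cluster 10, whereas it was 1.28 (0.965 to 1.67) in cluster 3.

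Outside leukocytes Cybb was low and kept to the level of macrophage markers. In endothelial-like nuclei it had 5.12 CPM in aneurysm, 38.5 in smoke and 31.7 in room air, or 2.47% in aneurysm, 14.8% in smoke and 12.8% in room air of the macrophage-like level of the same library. The median of 10 macrophage markers (among them Csf1r, Adgre1 and Mrc1) in those nuclei was 4.13% in aneurysm, 16.3% in smoke and 13.9% in room air of their own macrophage-like level. In fibroblast-like nuclei Cybb stood at 7.1% in aneurysm, 20.3% in smoke and 13.9% in room air, beside a marker median of 6.49% in aneurysm, 21.9% in smoke and 14.3% in room air. In smooth muscle-like nuclei it stood at 4.62% in aneurysm, 13.3% in smoke and 14.7% in room air, beside a marker median of 7.18% in aneurysm, 16.1% in smoke and 17% in room air. Cybb was inside the range of the 10 markers in all 9 of these cases, so these levels are not read as expression; the range was wide, and the part of RNA from macrophages was not tested. Cyba stood higher: in endothelial-like nuclei it had 16.2 CPM in aneurysm, 34.5 in smoke and 24 in room air, or 15.9% in aneurysm, 27.7% in smoke and 20.3% in room air of the macrophage-like level. That was above the highest of the 10 markers in smoke (20.4%) and room air (19.9%) and below the highest in aneurysm (22.1%). In fibroblast-like nuclei Cyba stood at 19.2% in aneurysm, 35.8% in smoke and 23.9% in room air, above the marker median in all 3 libraries and above the highest marker (27.5%) in smoke alone. The same part in these Cyba levels was not tested.

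**Figure D2:**
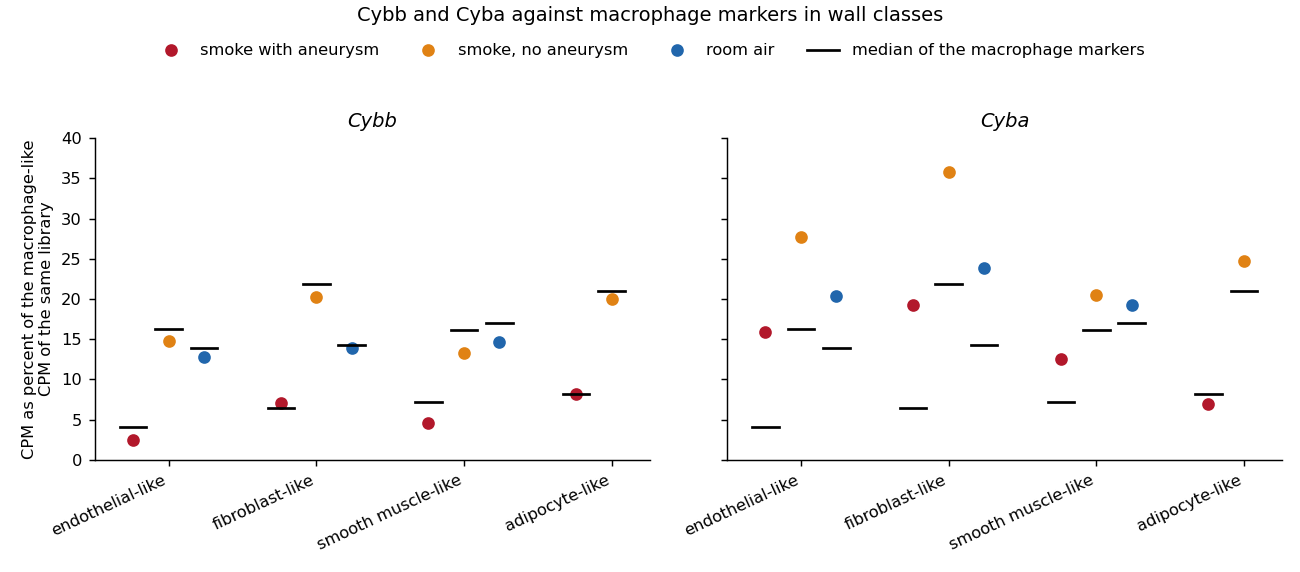
CPM of Cybb (left) and Cyba (right) in 4 classes as percent of the macrophage-like CPM of the same library (y axis); dots are libraries with at least 50 nuclei of the class and black bars are the median of 10 macrophage markers in the same nuclei. Cybb dots lie near the bars, and Cyba dots of endothelial-like, fibroblast-like and smooth muscle-like nuclei lie above them.

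Cybb was lower in the wall classes of the aneurysm library. The aneurysm over smoke ratio was 0.133 (0.0685 to 0.234) in endothelial-like nuclei, 0.279 (0.169 to 0.439) in fibroblast-like nuclei and 0.277 (0.0564 to 0.83) in smooth muscle-like nuclei, from 12, 21 and 3 Cybb UMIs of the aneurysm library. The summed CPM of the 10 macrophage markers was lower too, but not evenly. It was 279 in aneurysm and 626 in smoke in endothelial-like nuclei, and 247 in aneurysm and 698 in smoke in fibroblast-like nuclei. In smooth muscle-like nuclei it differed least, with 579 in aneurysm and 714 in smoke. The part of free RNA or mixed droplets was not tested.

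Nox4 was highest in nuclei of the vessel wall. Smooth muscle-like nuclei had 3114 CPM (2922 to 3316) in aneurysm, 3030.2 CPM (2973 to 3088) in smoke and 2057 CPM (1991 to 2125) in room air. Cluster 5 had 1812 CPM in aneurysm, 1932 in smoke and 1178 in room air, and cluster 9 had 1163 CPM in aneurysm, 1100.1 in smoke and 593 in room air. Fibroblast-like nuclei had 1128 CPM in aneurysm, 597 in smoke and 520.2 in room air. These 4 groups kept this order in all 3 libraries, and the only neighbours among them whose intervals overlapped were cluster 9 and fibroblast-like nuclei in the aneurysm library. The unnamed cluster 20 carried fibroblast, smooth muscle and macrophage markers and had 6 nuclei in aneurysm. It had 441 CPM (413 to 471) in smoke, below all 4, and 703 CPM (646 to 765) in room air, above cluster 9 and fibroblast-like nuclei. Endothelial-like nuclei were several-fold lower, at 163 CPM in aneurysm, 143 in smoke and 155 in room air, and macrophage-like nuclei were at 52.7 CPM in aneurysm, 13.9 in smoke and 9.94 in room air. As percent of the smooth muscle-like level, endothelial-like Nox4 was 5.22% in aneurysm, 4.73% in smoke and 7.53% in room air. The highest of 8 smooth muscle markers there was at 3.46% in aneurysm, 6.79% in smoke and 4.33% in room air. Nox4 thus exceeded it in aneurysm and room air but not in smoke. The part of RNA from smooth muscle was not tested. The share of smooth muscle-like nuclei with a Nox4 UMI was 71.8% in aneurysm, 82.9% in smoke and 74.5% in room air, and that of macrophage-like nuclei, at the depths given above, was 10.1% in aneurysm, 11.6% in smoke and 6.46% in room air. Cluster 5 held the largest part of all Nox4 UMIs of any class or cluster, 46.3% in aneurysm, 41.5% in smoke and 39.4% in room air. Its part of all UMIs was 8.67% in smoke and 8.56% in room air. It was larger in the aneurysm library, with 13.8% of the nuclei there, 5.61% in smoke and 6.36% in room air.

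**Figure D3:**
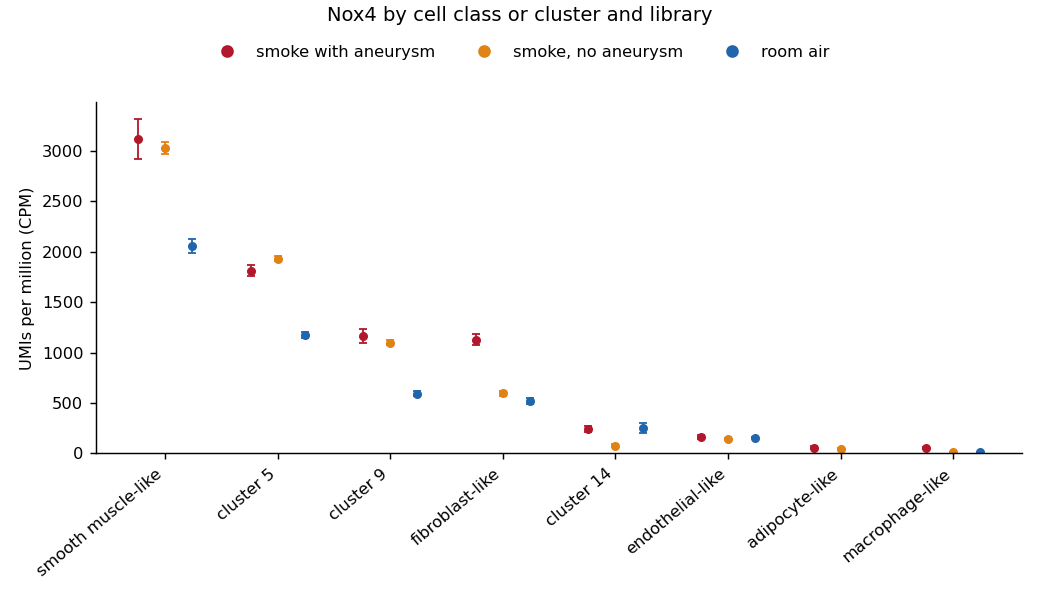
CPM of Nox4 (linear axis) in 8 cell classes or unnamed clusters; points are libraries with at least 50 nuclei and bars are 95% Poisson intervals for counting error. In smooth muscle-like nuclei and in clusters 5 and 9 both smoke-exposed libraries lie above room air, in fibroblast-like nuclei the aneurysm library lies above the others, and endothelial-like nuclei are at 163 CPM in aneurysm, 143 in smoke and 155 in room air.

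The libraries differed in Nox4 class by class. In smoke over room air, the ratio was 1.47 (1.42 to 1.53) in smooth muscle-like nuclei, 1.64 (1.6 to 1.69) in cluster 5 and 1.85 (1.77 to 1.94) in cluster 9, but 1.15 (1.06 to 1.24) in fibroblast-like and 0.926 (0.877 to 0.979) in endothelial-like nuclei. In cluster 20 it went the other way, at 0.627, where 1 nucleus held 126 of the 549 Nox4 UMIs in room air. The smooth muscle value lies just under 1.5-fold: it was past it in 5 of 13 other ways of processing the data, with log2 ratios between 0.44 and 0.70, and its sign was the same in all 13. In aneurysm over smoke, the ratio was 1.03 (0.961 to 1.1) in smooth muscle-like nuclei, 0.938 (0.906 to 0.971) in cluster 5 and 1.06 (0.989 to 1.13) in cluster 9, all near 1, whereas fibroblast-like nuclei had 1.89 (1.77 to 2.02). In aneurysm over room air, the ratios were 1.51 (1.41 to 1.63) in smooth muscle-like nuclei, 1.54 (1.48 to 1.6) in cluster 5, 1.96 (1.82 to 2.11) in cluster 9, 2.17 (2.0 to 2.35) in fibroblast-like nuclei and 1.05 (0.94 to 1.17) in endothelial-like nuclei. Within endothelial-like nuclei the 2 clusters differed: Nox4 was 1.84 (1.38 to 2.41) in aneurysm over smoke in cluster 7, with 147 CPM in aneurysm, 79.8 in smoke and 84.4 in room air, and 0.941 (0.835 to 1.06) in cluster 2, with 166 CPM in aneurysm, 176 in smoke and 174 in room air. The comparisons share libraries, so they are not independent of each other.

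How the wall nuclei were divided mattered for these values. With the libraries clustered one by one, the smooth muscle-like ratio of aneurysm over room air was -0.08 on the log2 scale instead of 0.60, and aneurysm over smoke was -0.63 instead of 0.04; at clustering resolution 2 they were 0.98 and 0.54. The fibroblast-like log2 ratio of Nox4 in aneurysm over smoke was -0.03 with looser naming, which adds cluster 5 to that class, instead of 0.92, and between 0.66 and 1.43 in the other 12 ways of processing. Thinned to 1000 UMIs, the share of fibroblast-like nuclei with a Nox4 UMI was 40.3% in aneurysm, 30.1% in smoke and 34.6% in room air, and that of smooth muscle-like nuclei was 65.2% in aneurysm, 67.2% in smoke and 60.8% in room air.

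In macrophage-like nuclei Nox4 was a trace within the range of smooth muscle markers. Its ratio was 3.79 (2.98 to 4.77) in aneurysm over smoke and 5.3 (4.11 to 6.79) in aneurysm over room air, from 82 UMIs of the aneurysm library. That level was 1.69% in aneurysm, 0.459% in smoke and 0.483% in room air of the smooth muscle-like level. The median of 8 smooth muscle markers in the same nuclei was 0.959% in aneurysm, 0.754% in smoke and 0.528% in room air of theirs, and the highest was 3.35% in aneurysm, 1.04% in smoke and 1.08% in room air. Over all nuclei Nox4 had 653 CPM in aneurysm, 404 in smoke and 256 in room air, with the aneurysm library highest as well. Nox4 was thus inside the range of these markers in all 3 libraries, and the part of RNA from wall cells was not tested. Cluster 14, whose nuclei carried lymphatic and other endothelial markers, had 242 CPM in aneurysm, 78.3 in smoke and 252 in room air. The smoke library was low there, at a smoke over room air ratio of 0.311 (0.236 to 0.409). The room air library had 101 nuclei there, and 1 of them held 32 of the 107 Nox4 UMIs. In smoke 1 nucleus held 43. As percent of the smooth muscle-like level, Nox4 in cluster 14 was 7.76% in aneurysm, 2.59% in smoke and 12.3% in room air. The highest smooth muscle marker was at 13.2% in aneurysm, 7.38% in smoke and 8.87% in room air, so Nox4 exceeded it in room air alone.

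Other NADPH oxidases were sparse, with 1 exception in fibroblast-like nuclei. Of 10 oxidases and partner proteins outside oxidase 2 (Nox4 among them), 5 reached the 20 UMIs, summed over both libraries, that a call needed in fibroblast-like nuclei for aneurysm over smoke, 3 were at least 1.5-fold higher (Nox4, Duox1 and Duoxa1) and 1 lower (Nox1), where 34.4% of all features measured were past 1.5-fold in either direction. Duox1, a dual oxidase that releases hydrogen peroxide, had 31.6 CPM (23.1 to 42.3) in aneurysm, 1.63 CPM (0.60 to 3.56) in smoke and 1.57 CPM (0.323 to 4.58) in room air, a ratio of 19.3 (8.23 to 55.5) in aneurysm over smoke. Its maturation factor Duoxa1, needed for the enzyme to reach the cell surface, had 24.6 CPM (17.1 to 34.2) in aneurysm, 0.817 CPM (0.169 to 2.39) in smoke and no UMI in room air, a ratio of 30.1 (9.49 to 153) in aneurysm over smoke. The smoke and room air values of both genes rest on at most 6 UMIs. In the aneurysm library the Duox1 UMIs came from 27 nuclei and the Duoxa1 UMIs from 23 of the 727 fibroblast-like nuclei, and clusters 5 and 9 together had 1 UMI of the 2 genes over all 3 libraries. These 2 genes were singled out after their values were seen.

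The 3 dismutases had distinct cellular patterns. Sod1, the cytosolic enzyme, was highest in adipocyte-like nuclei, at 80.6 CPM (69.7 to 92.8) in aneurysm and 69.8 CPM (58 to 83.4) in smoke. Dendritic-like nuclei had 35.3 CPM in smoke and 46.6 in room air, and endothelial-like nuclei had 29.9 CPM in aneurysm, 23.3 in smoke and 19.9 in room air. Macrophage-like nuclei were low, at 15.4 CPM in aneurysm, 11.5 in smoke and 10.7 in room air. Sod2, the mitochondrial enzyme, was also highest in adipocyte-like nuclei, at 133 CPM (119 to 149) in aneurysm and 182 CPM (163 to 203) in smoke, and no other class reached that level in either library. Cat, the catalase that removes the hydrogen peroxide dismutases make, was high in the same class, with 241 CPM in aneurysm and 196 CPM in smoke, whereas macrophage-like nuclei had 57.2 CPM in aneurysm, 60.1 in smoke and 70.0 in room air.

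The 2 adipocyte-like clusters differed in Sod1 more than in Sod2. Cluster 15, led by the white fat genes Car3, Cidec and Retn, had 106 CPM of Sod1 in aneurysm and 120.1 in smoke. Cluster 16, which expressed Ucp1 and Cidea, genes of heat-producing fat, had 38.9 CPM of Sod1 in aneurysm and 25.8 in smoke, below cluster 15 in both. Sod2 had the other order, with 118 CPM in aneurysm and 163 in smoke in cluster 15, and 159 CPM in aneurysm and 199 in smoke in cluster 16. Adipocyte-like nuclei held 48.7% of the Sod1 UMIs and 42.2% of the Sod2 UMIs in aneurysm, against 6.42% and 8.04% in smoke. Their part of all UMIs differed too, with 2406563 of 12744745 in aneurysm and 1747561 of 115812916 (1.51%) in smoke. Over all nuclei, Sod1 had 31.2 CPM in aneurysm, 16.4 in smoke and 15.2 in room air, while within adipocyte-like nuclei the aneurysm over smoke ratio was 1.15 (0.916 to 1.46). The Sod1 locus overlaps Scaf4 on the opposite strand, so its reads may not be separable from those of Scaf4.

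**Figure D4:**
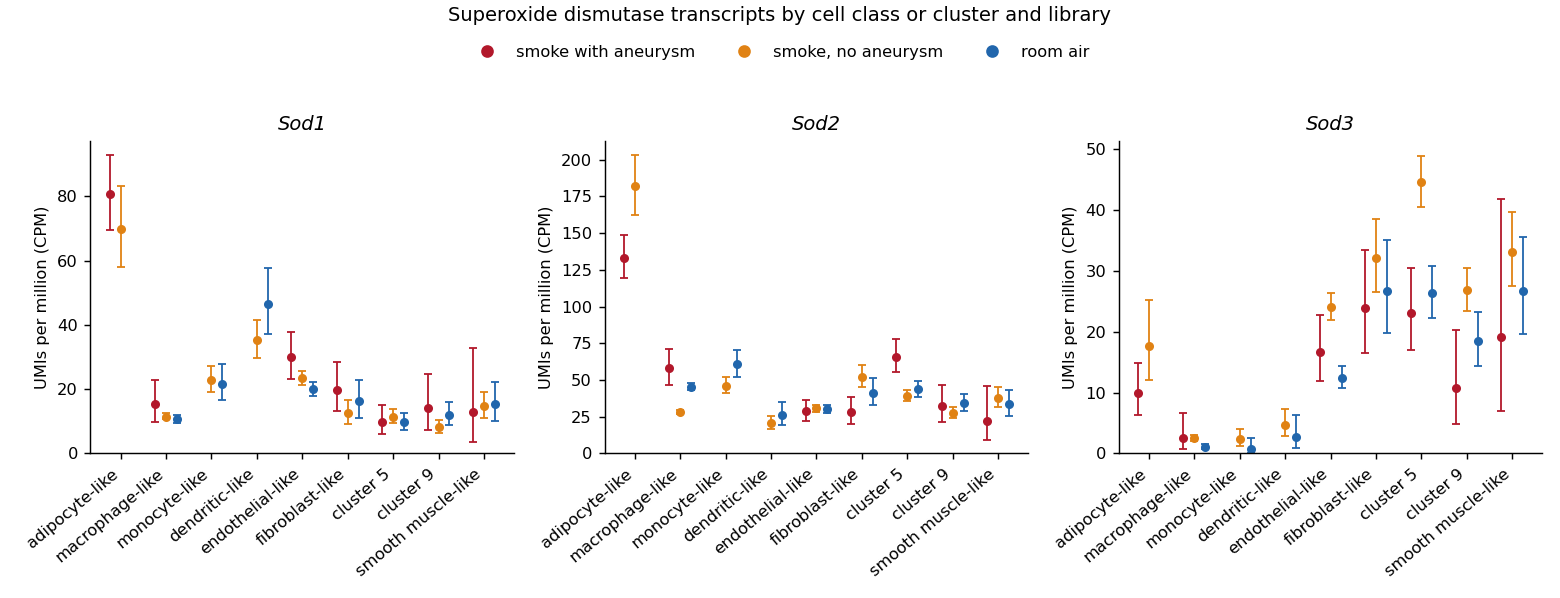
CPM of Sod1, Sod2 and Sod3 (linear axes, a panel per gene) in 9 cell classes or unnamed clusters; points are libraries with at least 50 nuclei and bars are 95% Poisson intervals for counting error. Adipocyte-like nuclei are highest for Sod1 and Sod2, whereas of the groups drawn Sod3 is highest in fibroblast-like and smooth muscle-like nuclei and cluster 5 and near 0 in macrophage-like nuclei.

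Sod2 in macrophage-like nuclei was lower in the smoke library than in the others: 57.9 CPM (46.5 to 71.1) in aneurysm, 28.1 CPM (26.6 to 29.6) in smoke and 45.2 CPM (42.9 to 47.6) in room air. The ratio was 0.621 (0.577 to 0.669) in smoke over room air and 2.06 (1.65 to 2.55) in aneurysm over smoke, with 1.28 (1.02 to 1.58) in aneurysm over room air. By cluster, smoke over room air was 0.495 (0.406 to 0.601) in cluster 10, 0.611 (0.545 to 0.684) in cluster 0, 0.625 (0.532 to 0.735) in cluster 3, 0.86 (0.708 to 1.05) in cluster 1 and 1.34 (0.709 to 2.76) in cluster 17. The ratio was thus past 1.5-fold in clusters 0, 3 and 10 and not in clusters 1 and 17. Monocyte-like nuclei had a smoke over room air ratio of 0.759 (0.624 to 0.926). The aneurysm over smoke ratio ran from 1.3 in cluster 0 to 2.1 in cluster 10, and only that of cluster 17, 1.79 (1.2 to 2.68), had an interval above 1. Cluster 17 had the highest Sod2 of the 5 clusters in the aneurysm library, at 89.5 CPM. Prdx1, a peroxide-removing peroxiredoxin, had 166 CPM in aneurysm, 179 in smoke and 319 in room air in the same class. Within the 5 clusters, smoke was lower than room air in each, with overlapping intervals in clusters 1 and 17. Aneurysm was not lower than room air in cluster 1 (168 CPM in aneurysm, against 131 in room air) and cluster 3 (158 CPM in aneurysm, against 156 in room air). Unlike in the whole class, aneurysm lay above smoke in clusters 0, 1, 3 and 10, with overlapping intervals in each. Smoke had 278 CPM in cluster 0, 123 in cluster 1, 110 in cluster 3 and 104 in cluster 10. Aneurysm had 336 CPM in cluster 0 and 180 in cluster 10. In cluster 17 Prdx1 had 50.1 CPM in aneurysm and 55.5 in smoke.

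Sod3, the secreted enzyme, was highest in wall nuclei, apart from a shallow cluster described below, and nearly absent from macrophage-like nuclei. Cluster 5 had 23 CPM in aneurysm, 44.6 in smoke and 26.3 in room air, and smooth muscle-like nuclei had 19.2 CPM in aneurysm, 33.2 in smoke and 26.7 in room air. Fibroblast-like nuclei had 23.9 CPM in aneurysm, 32.1 in smoke and 26.6 in room air. Endothelial-like nuclei had 16.6 CPM in aneurysm, 24.1 in smoke and 12.5 in room air, against 2.57 CPM in aneurysm, 2.5 in smoke and 1.06 in room air in macrophage-like nuclei. The intervals of cluster 5, smooth muscle-like and fibroblast-like nuclei overlapped in aneurysm and in room air, so their order is not settled there; in smoke that of cluster 5 lay above the other 2. The smoke library was the highest of the 3 in each of these wall classes. The smoke over room air ratio was 1.93 (1.63 to 2.3) in endothelial-like nuclei, 1.69 (1.41 to 2.05) in cluster 5, 1.45 (1.11 to 1.92) in cluster 9, 1.24 (0.879 to 1.78) in smooth muscle-like nuclei and 1.21 (0.862 to 1.71) in fibroblast-like nuclei. The endothelial value was 2.17 (1.79 to 2.63) in cluster 2 and 1.51 (1.03 to 2.26) in cluster 7, the 2 clusters of that class. In aneurysm over smoke it was 0.692 (0.486 to 0.96) in endothelial-like nuclei and 0.516 (0.376 to 0.694) in cluster 5, so the aneurysm library lay lower than smoke, in endothelial-like nuclei by less than 1.5-fold. In the shallow unnamed cluster 4, Sod3 was 45.8 CPM in the smoke library, against 6.38 CPM in the room air library; smooth muscle markers there had a median of 16.7% of their smooth muscle-like level in the smoke library and 3.27% in the room air library. The part of these markers in the Sod3 value was not tested.

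The genes past 1.5-fold are given here by class, beside the share of all features past it. In macrophage-like nuclei, aneurysm over smoke had 3 of 9 higher (Ncf1, Nox4 and Sod2) and 0 lower, where 45.1% of the 15749 features that reached 20 UMIs summed over both libraries were past 1.5-fold in either direction. Aneurysm over room air had 3 of 9 higher (Ncf1, Nox4 and Sod3, the last from 4 UMIs of the aneurysm library) and 0 lower, beside a background of 39.7%. Smoke over room air had 1 of 9 higher (Sod3) and 1 lower (Sod2), beside 15.8%. The median log2 ratio of the 9 genes was 0.04 in aneurysm over smoke, 0.38 in aneurysm over room air and 0.10 in smoke over room air, beside -0.03, -0.01 and 0.02 for all features.

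In endothelial-like nuclei, aneurysm over smoke had 0 of 9 higher and 5 lower (Cybb, Cyba, Ncf1, Ncf4 and Rac2, all oxidase 2 subunits), beside a background of 33.6%. Aneurysm over room air had 0 of 9 higher and 4 lower (the same without Cyba), beside 29.7%. Smoke over room air had 1 of 9 higher (Sod3) and 0 lower, beside 17.1%. The Ncf1, Ncf4 and Rac2 calls rest on at most 6 UMIs of the aneurysm library each, and these nuclei carried fewer macrophage markers there, as given above.

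Fibroblast-like nuclei held the widest gap to the background: aneurysm over smoke had 2 of 9 higher (Nox4 and Sod1) and 5 lower (Cybb, Cyba, Ncf4, Rac2 and Sod2), beside a background of 34.4%. The 4 oxidase 2 subunits that were lower there were the same 4 that were higher in smoke over room air, where 4 of 9 genes were higher and 0 lower beside 21.3%. Rac2 rests there on 1 UMI in aneurysm, 21 in smoke and 1 in room air, and Ncf4 on 5 in aneurysm, 41 in smoke and 10 in room air. These nuclei carried the most macrophage markers in the smoke library, and both comparisons share that library. Aneurysm over room air had 1 of 7 measured genes higher (Nox4) and 1 lower (Cybb), beside 31.1%. Sod2 had 28.1 CPM in aneurysm, 52 in smoke and 41.3 in room air in these nuclei, and its ratio of 0.54 (0.374 to 0.763) in aneurysm over smoke changed direction with the processing: the log2 ratio of -0.89 was 0.07 with the libraries clustered one by one and 0.25 with looser naming.

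In smooth muscle-like nuclei, aneurysm over smoke had 0 of 8 measured genes higher and 6 lower (Cybb, Cyba, Ncf1, Ncf4, Sod2 and Sod3, from at most 7 UMIs each in the 124 nuclei of the aneurysm library), beside a background of 44.4%. Aneurysm over room air had 1 of 6 higher (Nox4) and 2 lower (Cybb and Cyba), beside 38.0%. Smoke over room air had 0 of 8 higher and 0 lower, beside 21.6%, with Nox4 the nearest to 1.5-fold.

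**Figure D5:**
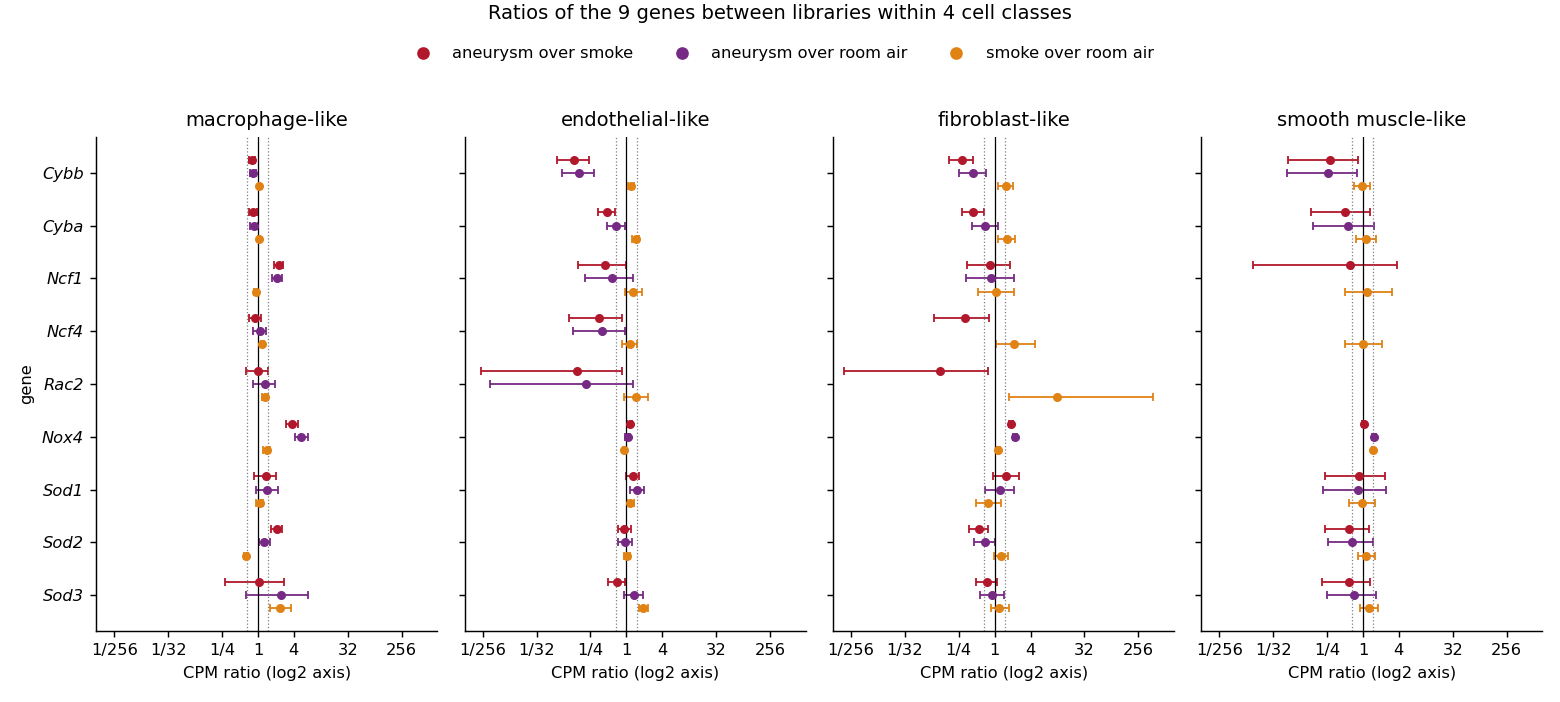
Ratio of CPM between 2 libraries (log2 axis) for the 9 genes (rows) in 4 cell classes (panels); points are ratios and bars 95% intervals for counting error, drawn where the gene reached 20 UMIs summed over both libraries, with at least 1 in each, with dotted lines at 1.5-fold. Nox4 lies to the right in fibroblast-like and macrophage-like nuclei in aneurysm over smoke, Ncf1 in macrophage-like nuclei, and Cybb to the left in the 3 wall classes.

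Other enzymes of the pathway were counted from lists, each beside the share of all features past 1.5-fold in either direction (the background). Of 17 peroxide-removing enzymes, macrophage-like nuclei had 2 higher and 6 lower of 16 measured in aneurysm over smoke (background 45.1%) and 2 higher and 1 lower of 17 measured in smoke over room air (15.8%). In endothelial-like nuclei, smoke over room air had 5 higher and 0 lower of 16 measured (Prdx2, Prdx4, Prdx5, Gpx1 and Gpx8), beside a background of 17.1%, and a median log2 ratio of 0.33 beside 0.10 for all features. Aneurysm over smoke had 0 higher and 9 lower of 16 measured there, beside 33.6%. In fibroblast-like nuclei, smoke over room air had 6 higher and 0 lower of 17 measured, beside 21.3%, and a median log2 ratio of 0.44 beside 0.10 for all features. Gpx3, the secreted glutathione peroxidase, had 86.4 CPM (71.8 to 103) in aneurysm, 31.3 CPM (25.9 to 37.6) in smoke and 13.1 CPM (8.45 to 19.3) in room air there, a ratio of 2.76 (2.12 to 3.59) in aneurysm over smoke and 2.4 (1.55 to 3.86) in smoke over room air, so it was highest in aneurysm and lowest in room air, with no overlap of the intervals. Of the 9 Rac activators and oxidase kinases, which switch oxidase 2 on, macrophage-like nuclei had 1 higher and 0 lower of 9 measured in aneurysm over smoke (Tiam1), beside 45.1%, and 0 higher and 0 lower of 9 measured in smoke over room air, beside 15.8%. In fibroblast-like nuclei 0 of the 9 were higher and 6 lower in aneurysm over smoke (Vav1, Vav3, Dock2, Prex1, Prkcb and Prkcd), beside a background of 34.4%. In endothelial-like nuclei 0 were higher and 7 lower (the same 6 and Pak1), beside 33.6%. Macrophage markers were lower too in both kinds of nuclei of the aneurysm library. Ccs, the copper chaperone that loads Sod1, had 54.4 CPM in aneurysm, 23.9 in smoke and 17 in room air in smooth muscle-like nuclei. The aneurysm value there rests on few UMIs, from 124 nuclei with a median of 1512 UMIs each. In endothelial-like nuclei Ccs had 38 CPM in aneurysm, 25.7 in smoke and 23.4 in room air. Ccs was past 1.5-fold in aneurysm over smoke in smooth muscle-like nuclei and just under it in endothelial-like nuclei.

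The 7 dismutases and copper-supply genes (Ccs, Atp7a, Atox1 and Slc31a1 beside the dismutases) had 1 higher and 0 lower of 7 measured in macrophage-like nuclei (background 45.1%), 1 higher and 5 lower of 7 measured in smooth muscle-like nuclei (44.4%), where the 5 lower ones rest on at most 14 UMIs of the aneurysm library, and 0 higher and 0 lower of 7 measured in endothelial-like nuclei (33.6%), all in aneurysm over smoke. Of 7 other oxidant sources, endothelial-like nuclei had 1 higher and 1 lower of 5 measured in aneurysm over smoke (Maob higher and Xdh, which encodes xanthine oxidoreductase, lower), beside 33.6%, and 1 higher and 0 lower of 5 measured in smoke over room air (Maob), beside 17.1%. Nos3, the endothelial nitric oxide synthase, whose product superoxide consumes, had 386 CPM (361 to 412) in aneurysm, 291 CPM (283 to 298) in smoke and 243 CPM (236 to 251) in room air in endothelial-like nuclei, with ratios of 1.33 (1.24 to 1.43) in aneurysm over smoke and 1.19 (1.15 to 1.25) in smoke over room air. Nos3 was thus highest in aneurysm and lowest in room air, with no overlap of the intervals and under 1.5-fold between neighbours.

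The genes with the most similar patterns were sought among 12464 features over 24 sums of a class in a library, by Pearson's r of log2(CPM + 1). For Cybb they were Pik3ap1 (r = 0.98), Syk (r = 0.97) and Vav1 (r = 0.97), which encode signalling proteins of leukocytes. For Nox4 they were Fhl1 (r = 0.96), Tgfb2 (r = 0.95), which encodes a transforming growth factor, and Dzip1l (r = 0.95). For Sod3 they were Hspb1, which encodes a small heat shock protein, Serping1, which encodes the C1 inhibitor of complement, and Lpin3 (r = 0.90 each). Among the 9 genes, Cybb had its highest r with Cyba (r = 0.94), Ncf4 (r = 0.93), Ncf1 (r = 0.92) and Rac2 (r = 0.88) and its lowest with Nox4 (r = -0.66). The 24 sums share libraries, depth and the same few cell types. With a pseudocount of 10, Pik3ap1 and Syk stayed among the nearest 3 of Cybb and Fhl1 among those of Nox4, and the nearest of Sod3 were other genes. Over 10 class sums with the libraries added up, Pik3ap1 and Fhl1 alone stayed among the nearest 3, and the lowest r of Cybb was with Sod3 (r = -0.86), below that with Nox4 (r = -0.66).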

How the data were processed

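Single-nucleus libraries of 3 groups, 1 per group, were used as 10x count matrices. The deposited values are raw counts of UMIs per gene and barcode; the authors' processing is known only from the submitters' processing notes, which name Cell Ranger 2.2.0, STAR and mm10, and per the file headers, which name cellranger 8.0.1. The conflict was not settled, and no source states whether introns or strand were used in counting. Nuclei were kept from 500 UMIs and 300 genes upward where mitochondrial UMIs made up under 5%. They were normalised to 10000 UMIs on a log scale, and 2000 variable genes (the 9 genes, the fixed lists and mitochondrial genes left out), 30 principal components, 20 neighbours and Leiden clustering at resolution 1 gave 24 clusters (scanpy 1.11.5, leidenalg 0.10.2, Python 3.11.15). Clusters took the name of the marker list with the highest mean log2 level relative to the median cluster. The thresholds of that naming (a score of 0.5, a margin of 0.5 over the next list, or 1 between endothelial and lymphatic lists, and no name for clusters over 1.5 times the library's median depth with a second score above 1) were set after seeing the data, and names rebuilt in this way may differ from the study's. A doublet caller (Scrublet) marked 1 nucleus of the aneurysm library, 497 of the smoke library and 357 of the room air library, so it did not work in the first; no nuclei were removed, and leaving out the highest doublet scores was an alternative.

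UMIs were summed per class and library. CPM has exact Poisson 95% intervals, shares of nuclei have exact Clopper-Pearson 95% intervals, and ratios have exact conditional binomial 95% intervals; all cover counting error only, and UMIs remove PCR copies but not differences between libraries. A gene counted as measured when its UMIs summed over both libraries reached 20, and as higher or lower past 1.5-fold. Classes needed 50 nuclei in both libraries. The ratios and their intervals were tested on simulated data with known folds. With 1 library per group no test was made and no replicate could be left out. The 9 genes and all gene lists were chosen with earlier results of these data known. By a fixed rule, the text may name all 9 genes, genes of the lists, and the 3 most similar genes of Cybb, Nox4 and Sod3; of the listed genes, Duox1, Duoxa1, Gpx3, Prdx1, Ccs, Cat and Nos3 were singled out after their values were seen. Promoter sequences are RefSeq's (GRCm38.p6), matched by symbol for 6 of the 9 genes. Overlapping genes were read from the GENCODE annotation given with the reference. Scaling alternatives used edgeR 4.0.16 (TMM) in R 4.3.3. Some listed genes, and counts that include them, are not reported here. No column of per-sample values was left unused.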

Additional observations from a re-analysis of the deposited data

Results flagged for a closer look

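In these genes a ratio past 1.5-fold in one class stood beside a ratio past 1.5-fold the other way in another class under the same comparison. With 1 library a group the differences between classes were not tested.

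Nox4 in smoke over room air had ratios of 2.10 in T or NK-like nuclei, 1.85 in cluster 9 and 1.64 in cluster 5, against 0.311 in cluster 14 and 0.627 in cluster 20. In T or NK-like nuclei the ratio rests on 96 UMIs in smoke and 13 in room air, a trace beside the level of the wall classes, and the room air library held 101 nuclei of cluster 14. In cluster 14, 1 nucleus held 43 Nox4 UMIs in smoke, and 1 nucleus held 32 of the 107 in room air. In cluster 20, 1 nucleus held 59 of the 884 Nox4 UMIs in smoke, and 1 nucleus held 126 of the 549 in room air.

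Ncf1 in aneurysm over smoke had ratios of 2.24 in macrophage-like nuclei and 3.15 in cluster 5, against 0.437 in endothelial-like nuclei. The value of cluster 5 rests on 12 UMIs in aneurysm and 18 in smoke, and that of endothelial-like nuclei on 6 UMIs in aneurysm and 113 in smoke. In endothelial-like nuclei Ncf1 was 3.09% in aneurysm and 15.8% in smoke of the macrophage-like level. The 10 macrophage markers ran there from 1.59 to 22.1% in aneurysm and from 10.8 to 20.4% in smoke. Ncf1 was inside the marker range in cluster 5 too, so neither is read as expression.

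Sod2 in aneurysm over smoke had ratios of 2.06 in macrophage-like nuclei and 1.68 in cluster 5, against 0.540 in fibroblast-like nuclei. In aneurysm over room air, Sod2 had a ratio of 1.51 in cluster 5, against 0.482 in cluster 14 and 0.613 in the shallow unnamed cluster 4.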

How the results depend on the processing

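The number of the 9 genes past 1.5-fold was compared with its value under each alternative in 180 cases, and it stayed within 1.5 times in 150 and moved further in 30. The cause of these moves was not tested. In macrophage-like nuclei, smoke over room air (2 as reported) had 1 with equal weight per nucleus, and aneurysm over room air (3) had 5 with 15 principal components and 1 at resolution 2; aneurysm over smoke did not move further. In endothelial-like nuclei, smoke over room air (1) had 3 with a minimum of 1000 UMIs, at resolution 0.5, when each library was clustered alone (one by one) and with the 9 genes and lists among the variable genes, and 2 with 15 principal components and with equal weight per nucleus. Aneurysm over smoke (5) had 3 with equal weight per nucleus, and aneurysm over room air (4) had 2 with no filter and 1 with a minimum of 100 UMIs per gene. In fibroblast-like nuclei, smoke over room air (4) had 2 without the highest doublet scores and with 100 UMIs per gene, aneurysm over smoke (7) had 4 with 100 UMIs per gene, and aneurysm over room air (2) had 4 with a minimum of 1000 UMIs, TMM and median-of-ratios scaling and 1 with 100 UMIs per gene. In smooth muscle-like nuclei, smoke over room air (0) had 2 with a minimum of 1000 UMIs and without the highest doublet scores, 1 with 15 principal components, at resolution 2 and with the 9 genes among the variable genes, and 4 with equal weight per nucleus. Aneurysm over smoke (6) had 3 with 100 UMIs per gene, and aneurysm over room air (3) had 5 at resolution 2 and without a minimum of UMIs per gene, 6 with equal weight per nucleus and 1 with 100 UMIs per gene. TMM scaling shifted all log2 ratios of macrophage-like nuclei by -0.14 in both aneurysm comparisons.

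Among levels, ratios and shares of single genes, 12 values of ratios past 1.5-fold as reported changed direction, 246 values moved by more than their interval and 1278 did not. Ratios nearer to 1 were not counted as changing direction, and some of them took the other sign: the log2 ratio of Nox4 in smooth muscle-like nuclei, aneurysm over smoke, ran from -0.63 to 0.54 and kept its sign in 6 of 13 alternatives, and that of Sod3 in macrophage-like nuclei, same comparison, ran from -1.24 to 0.06 and kept it in 4. Of the ratios past 1.5-fold, those that changed direction in endothelial-like nuclei were Ncf1 in aneurysm over smoke (0.36 with no filter, 0.027 at resolution 2), Ncf1 in aneurysm over room air (0.40 with no filter, 0.088 at resolution 2) and Rac2 in aneurysm over room air (0.12 with no filter). In fibroblast-like nuclei they were Cybb in smoke over room air (-0.10 with equal weight per nucleus), Nox4 in aneurysm over smoke (-0.033 with looser naming) and Sod2 in aneurysm over smoke (0.070 with libraries one by one, 0.25 with looser naming). The others were Nox4 in smooth muscle-like nuclei, aneurysm over room air (-0.085 with libraries one by one), and in macrophage-like nuclei Ncf1 in aneurysm over room air (-0.11 within cluster 10) and Sod2 in smoke over room air (0.42 within cluster 17). Looser naming was chosen after seeing the data. Depth limited the aneurysm library most: in its 124 smooth muscle-like nuclei none of the 5 oxidase 2 subunits had more than 4 UMIs. No paired analysis was possible because each group has 1 library, and for the same reason no replicate could be left out.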
